A study of Mus musculus with 2 samples.

Results

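Remote Myb peaks were those rows of the Myb peak list whose summit, the base with the most reads, lay more than 50 kb from every annotated transcript start, coding or not. Distances were taken to the nearest start of any gene in the GENCODE vM21 annotation of the mouse genome (mm10), whether the summit was intergenic or inside a long intron. By this rule 679 of 25793 peaks were remote, or 2.63% (95% exact interval 2.44% to 2.84%). The list came from ChIP-Seq of Myb in WT bone marrow depleted of lineage-positive cells (Lin–), with 1 Myb library and 1 IgG library used as the background. Both carried the WT genotype, and the labels name no treatment and no age. The study's methods use WT for Ep300 fl/fl mice without Cre, on the C57BL/6 background, which received poly(I:C) injections as young mice along with the Mx1-Cre mice. Whether the mice of the Myb ChIP-Seq were among these, and their age, is not stated there. Lin– cells, which are enriched for stem and progenitor cells, were obtained by depletion with a stated purity above 80%, so other cells remained in the sample. Only peaks were available here, with no expression or chromatin values from these cells, and so the cell type could not be checked against marker genes. There was no replicate library, and the values describe this Myb library alone.

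Myb is a transcription factor that blood stem and progenitor cells need in order to multiply and to keep their identity. It binds short DNA motifs with the core AAC and recruits the acetyltransferase p300 to enhancers, the stretches of regulatory DNA that can act on a gene from a long distance. Genes that encode developmental and blood regulators often lie beside long stretches without other genes, and enhancers within such stretches or within long introns can reach over neighboring genes. A peak position therefore does not name its target. Below, some peaks are given with the protein-coding genes on both sides and the distance to each. Others are given with only the gene under discussion, which need not be the nearer.

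The sequences at the summits come first, because they show what Myb peaks far from any gene look like at the level of bases. Each window holds the summit base and 50 bases on either side, on the plus strand of mm10, and capitals mark a Myb motif. The motif had 4 forms, searched on both strands. The first was CAACTG (its reverse reads CAGTTG), the second was CAACGG (its reverse reads CCGTTG), the third was TAACTG (its reverse reads CAGTTA) and the fourth was TAACGG (its reverse reads CCGTTA). Of the 10 remote peaks of highest fold enrichment, 4 hold a motif, and the windows of 3 of these are shown first. They lie at chr10:59564706-59564806 between Mcu and Gm10322, chr6:66954290-66954390 between Gng12 and Gadd45a, and chr7:113037935-113038035 between Rassf10 and Arntl.
Mcu to Gm10322: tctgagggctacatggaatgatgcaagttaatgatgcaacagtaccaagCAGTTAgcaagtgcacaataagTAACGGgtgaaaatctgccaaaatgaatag
Gng12 to Gadd45a: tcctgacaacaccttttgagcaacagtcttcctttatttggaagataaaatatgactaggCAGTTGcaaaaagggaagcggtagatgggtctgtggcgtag
Rassf10 to Arntl: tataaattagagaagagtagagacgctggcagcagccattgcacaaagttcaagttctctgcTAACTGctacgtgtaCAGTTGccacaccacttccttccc

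Next are 4 windows with a Myb motif beside genes of blood cell signaling or in a stretch with many peaks. They lie at chr15:42463590-42463690 in an intron of Angpt1, chr2:148563577-148563677 between Cd93 and Nxt1, chr12:73715997-73716097 in an intron of Prkch, and chr6:51180227-51180327 between Npvf and Nfe2l3.
Abra to Angpt1: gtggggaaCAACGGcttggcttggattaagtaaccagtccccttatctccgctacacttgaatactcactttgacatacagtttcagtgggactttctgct
Cd93 to Nxt1: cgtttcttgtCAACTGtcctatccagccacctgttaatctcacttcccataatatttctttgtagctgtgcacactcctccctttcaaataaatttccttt
Prkch to Hif1a: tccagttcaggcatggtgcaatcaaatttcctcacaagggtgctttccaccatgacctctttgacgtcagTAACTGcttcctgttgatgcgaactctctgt
Npvf to Nfe2l3: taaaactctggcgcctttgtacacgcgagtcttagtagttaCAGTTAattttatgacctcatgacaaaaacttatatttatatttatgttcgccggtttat

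The other 6 of the 10 strongest remote peaks had no Myb motif in the window. Windows of 3 strong peaks without it follow, to show that a strong peak need not hold one of the exact forms searched. They lie at chr8:126702502-126702602 between Irf2bp2 and Tomm20, chr12:12488208-12488308 between Fam49a and Mycn, and chr16:93152917-93153017 between Runx1 and Setd4. All 3 windows do hold a looser form, CAACNG or TAACNG on either strand, where N is any base. They are therefore not examples of sequence without any Myb-like site.
Irf2bp2 to Tomm20: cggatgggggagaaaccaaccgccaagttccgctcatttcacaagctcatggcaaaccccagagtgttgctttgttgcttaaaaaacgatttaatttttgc
Fam49a to Mycn: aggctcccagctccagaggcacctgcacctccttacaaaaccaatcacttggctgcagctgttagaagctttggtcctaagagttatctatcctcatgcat
Runx1 to Setd4: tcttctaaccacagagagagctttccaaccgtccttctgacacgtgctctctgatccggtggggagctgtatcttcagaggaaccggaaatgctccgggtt

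Remote peaks were few for the room they had. Sequence more than 50 kb from any start made up 583.4 Mb of the 2647.5 Mb of sequenced bases, or 22.04%, and held 2.63% of the peaks. This is 1.16 remote peaks per Mb (95% Poisson interval 1.08 to 1.25), against 9.74 peaks per Mb over the whole genome, a relative density of 0.119. Density fell with each step in distance, from 66.98 peaks per Mb within 1 kb of a start and 4.63 at 10 to 50 kb to 1.64 (1.51 to 1.78) at 50 to 100 kb and 0.489 (0.405 to 0.586) beyond 100 kb. Of the remote peaks, 561 lay at 50 to 100 kb and 118 beyond 100 kb. Whether reads can be placed in these bases was not tested, and the denominators are all sequenced bases. All intervals over peaks cover counting error only, and peaks close to each other are counted as if independent.

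**Figure D1:**
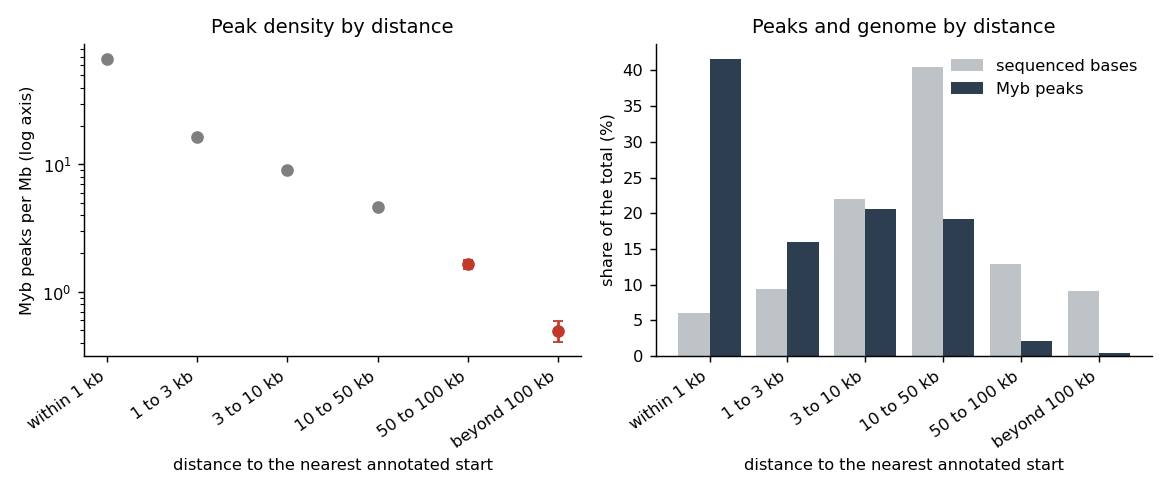
Left, Myb peaks per Mb (log axis) by distance of the summit to the nearest annotated start, with 95% Poisson intervals; right, the share of sequenced bases and of peaks in each distance class, in percent. The 2 classes beyond 50 kb (red at left) held 1.64 and 0.489 peaks per Mb, the lowest of the 6 classes.

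The rule on distance set a sharp edge. The 3 summits just inside it lay at 50.007 kb (between Plcg2 and Sdr42e1, 2.51-fold), 50.053 kb (between Jcad and Svil, 6.23-fold) and 50.083 kb (between Fam174a and St8sia4, 2.48-fold). The 3 just outside lay at 49.973 kb (between Lrrc8c and Lrrc8d, 4.61-fold), 49.877 kb (between Kcnj15 and Erg, 9.22-fold) and 49.826 kb (between Wdr1 and Zfp518b, 2.94-fold). Among the members the nearest start of any kind was a median of 69.3 kb away (quartiles 57.1 and 92.1 kb), with a maximum of 313.2 kb. That start belonged to a protein-coding gene for 260 peaks and to a noncoding gene or pseudogene for 419. The nearest protein-coding start was a median of 95.2 kb away (quartiles 69.1 and 164 kb), over 100 kb away for 306 peaks and over 500 kb away for 16.

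Remote peaks spanned most of the strength range of the list. Fold enrichment, the Myb signal over the IgG background as the authors computed it, had a median of 4.69 in remote peaks (quartiles 3.85 and 6.34, range 2.05 to 21.3). The median was 4.48 (95% order-statistic interval 4.47 to 4.51) for the 10269 peaks at 3 to 50 kb and 4.54 (4.51 to 4.60) for the 14845 promoter peaks within 3 kb, against an interval of 4.50 to 4.78 for the remote peaks. The order of the remote peaks and those at 3 to 50 kb turned with the measure, since the number of Myb reads at the summit was a median of 17 in remote peaks (quartiles 14 and 24, range 8 to 75) and 18 at 3 to 50 kb. The background was at its genome-wide floor, a pileup of 1.46, for 24.7% of remote peaks and 12.4% of all peaks, and its part in the fold enrichment was not tested. Within the remote peaks, Spearman's rho between fold enrichment and distance was 0.0171 over 679 peaks of the same library. A q-value of at most 0.05 was reached by 632 remote peaks (93.1%), near the 92.8% of all rows of the list. A −log10 q-value of at least 5 was reached by 285 (42.0%, exact interval 38.2% to 45.8%), against 43.1% of all rows. Fewer than 20 reads stood behind 406 remote peaks (59.8%), so the place of a single weak peak rests on few reads. Remote peaks made up 4 of the 100 strongest rows and 37 of the 1000 strongest, or 3.70% (2.62% to 5.06%), beside their 2.63% share of the list.

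The second strongest remote peak (18.9-fold, 63 reads, chr10:59564490-59565170) was in an intron of Mcu, the pore subunit of the mitochondrial calcium uniporter, with the nearest protein-coding starts 107 kb and 51.3 kb away. Its Myb motifs lay 2 bp and 24 bp from the summit. The third (18.2-fold, 75 reads, chr8:126702247-126702927) was intergenic, 109 kb from Irf2bp2, a transcriptional corepressor, and 243 kb from Tomm20, a mitochondrial import receptor. It had the highest read number of the remote peaks and no Myb motif in the window.

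The fourth (18.03-fold, 69 reads, chr12:12487653-12488861) lay 452 kb from Mycn, which encodes the Myc family factor N-Myc, and 226 kb from Fam49a. Of the next peaks, that in an intron of Gng12, a G protein subunit (chr6:66953444-66955173), had 17.4-fold enrichment and lay 82.8 kb from Gadd45a, a growth arrest and DNA damage gene. A peak in an intron of Rftn1, which encodes the lipid raft protein raftlin (chr17:50019019-50021350), had 17.2-fold enrichment, with Rftn1's nearest start at 73.8 kb and Kif6's at 133 kb. A peak at chr4:9109966-9111645, between the chromatin remodeler Chd7 (255 kb) and Clvs1 (159 kb), had 16.5-fold enrichment.

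The eighth peak (15.7-fold, 59 reads, chr2:128008510-128009649) was in an intron of Acoxl, 117 kb from Bcl2l11, which encodes the proapoptotic protein Bim. On the other side of Bcl2l11, 167 kb from it, stood the eleventh peak (13.6-fold, 49 reads, chr2:128294496-128295923), with a Myb motif 20 bp from its summit. The last of the 10 strongest were a peak at chr7:113037454-113038480, 169 kb from the clock gene Arntl and 84.0 kb from Rassf10, and a peak at chr19:31337393-31338430 in an intron of Prkg1, a cGMP-dependent protein kinase, 326 kb from its nearest start. Both had 14.0-fold enrichment. The Prkg1 peak held none of the 10 motif families searched, and it was the farthest of the 10, at 225 kb from any start.

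**Figure D2:**
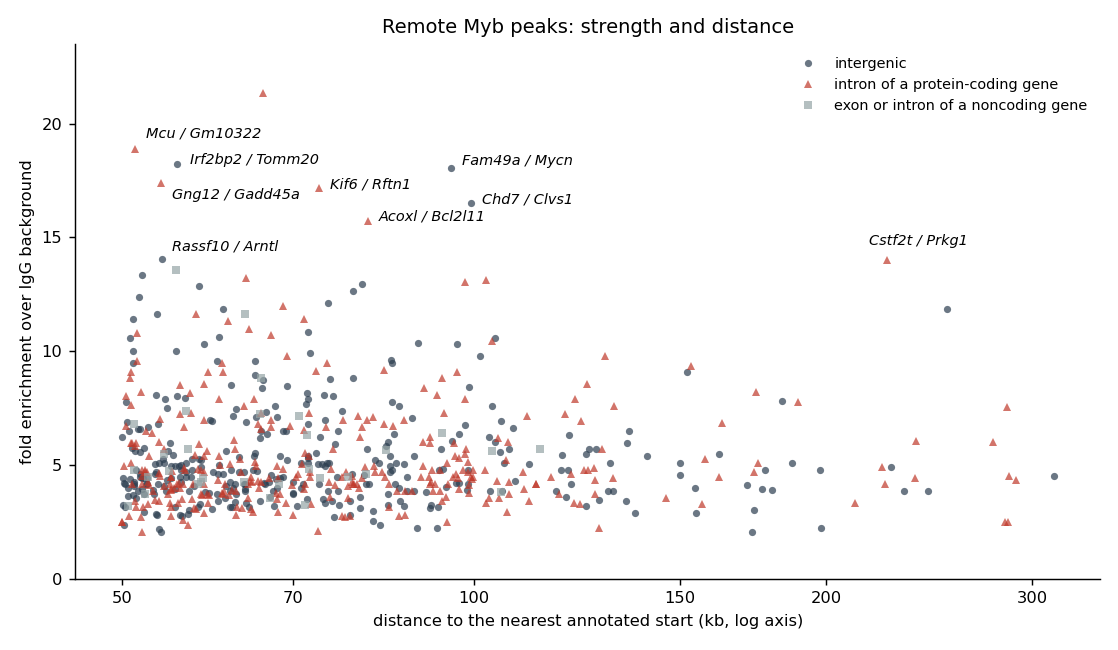
Fold enrichment over the IgG background of each of the 679 remote peaks against the distance of its summit to the nearest annotated start (kb, log axis), with the flanking protein-coding genes named for 9 of the 10 strongest. The highest value is 21.3, and Spearman's rho between the axes is 0.0171.

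Remote peaks were found about equally outside genes and inside long introns. Of the 679, 332 (48.9%) were intergenic, 316 (46.5%, 42.7% to 50.4%) lay in introns of protein-coding genes, 21 in introns of noncoding genes and 10 in exons. Introns of protein-coding genes made up 25.4% of the sequence beyond 50 kb, so their density was 2.13 remote peaks per Mb, against 0.834 per Mb in the rest. The intervals of the median fold enrichment overlapped, with a median fold enrichment of 4.60 (4.47 to 4.78) in these introns and 4.78 (4.49 to 5.01) in intergenic sequence. The gene on both sides was the same for 105 peaks, which lie between alternative starts of a single gene.

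The introns with the most remote peaks belonged to Gse1 (13), which encodes a protein found with the CoREST corepressor complex, and to Arid1b (13), a subunit of the SWI/SNF chromatin remodeling complex. Rad51b, a gene of homologous recombination, held 9, and Angpt1, whose product angiopoietin-1 is a ligand of the receptor Tie2, held 8. Nsmce2, a SUMO ligase gene, held 5. Several genes with 4 each followed, among them Cdk6, the cell cycle kinase (5.09- to 9.08-fold), and Cdk19, a kinase of the Mediator complex (4.47- to 9.10-fold).

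Remote peaks lay in a small share of the stretches between starts, though 679 peaks could fill no more than 679 of these. The sequence beyond 50 kb falls into 5862 stretches between neighboring starts, of which 402 (6.86%) held at least 1 peak. A single peak was found in 265 of them, and 137 stretches held the other 414 peaks. The 30 stretches with 4 or more peaks held 176 peaks, or 25.9% of all remote peaks, in 5.35 Mb. Stretches with a peak were longer, with a median of 84.0 kb beyond the 50 kb margins against 56.8 kb for those without. Another peak of the list lay within 10 kb of 261 remote peaks (38.4%, 34.8% to 42.2%). At 3 to 50 kb the share was 60.8% (59.8% to 61.7%). The distance rule bears on this difference, because no promoter peak can lie within 10 kb of a remote summit. Peaks were also denser there, at 9.11 per Mb at 3 to 10 kb and 4.63 at 10 to 50 kb, against 1.16 for remote peaks. The 2 shares therefore do not compare how strongly peaks cluster.

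The stretch in Arid1b held 13 peaks over 141 kb, all in introns of that gene, with fold enrichment from 2.73 to 7.12 and 12 to 33 reads. No single peak dominated it, and 4 of the 13 held a Myb motif. The stretch in Gse1 held 13 peaks over 84.7 kb and was led by a neighboring pair. That pair had 11.4-fold enrichment with 73 reads and 9.13-fold with 58 reads, and lay 144 kb and 142 kb from the nearest Gse1 start on the left. A Myb motif was found in 1 of the 13 Gse1 peaks, the second of the pair, and a RUNX motif in none. Over all remote summits the shares were 20.3% and 8.10%, so at 13 peaks neither count sets Gse1 apart.

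Between Rad51b and Zfp36l1, which encodes an RNA-binding protein that promotes mRNA decay, 11 peaks were spread over 458 kb. Their fold enrichment ran from 2.48 to 7.54, and none held a Myb motif, against 20.3% of all remote summits. This stretch also held 4 of the 5 remote peaks farthest from any start, at 286 kb (7.54-fold, 41 reads), 286 kb (2.48-fold, 18 reads), 287 kb (4.51-fold, 16 reads) and 291 kb (4.34-fold, 16 reads). The first 3 of these lie within the same 2 kb. The farthest of all, at chr6:11593845-11594505, was 313 kb from Ndufa4, a mitochondrial respiratory chain gene, and 2645 kb from Nxph1, with 4.51-fold enrichment and 28 reads.

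The stretch between Npvf and Nfe2l3, a CNC family transcription factor gene, differed in shape. Its 8 peaks were packed within 12.8 kb, between 86.4 and 99.1 kb from Mir148a, the gene of a microRNA that was the nearest start to all 8. The strongest was a 10.4-fold peak with 34 reads at chr6:51178592-51183178, whose window with a Myb motif is printed above, and the next had 8.42-fold enrichment. The other 6 ran from 2.22- to 4.84-fold.

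In Angpt1, 8 intronic peaks were spread over 122 kb and all reached a q-value of at most 0.05. The strongest (13.2-fold, 41 reads, chr15:42462859-42464081) lay 213 kb from the nearest Angpt1 start and was the only 1 of the 8 with a Myb motif. The others ran from 3.84- to 6.92-fold, the nearest to the Angpt1 start at 91.0 kb. GATA motifs were found in 5 of the 8 windows, against 20.2% of all remote summits. This family was picked from the 10 searched after seeing the counts, and the difference was not tested. The neighbor on the far side, Abra, a muscle actin-binding gene, was 594 to 716 kb away.

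**Figure D3:**
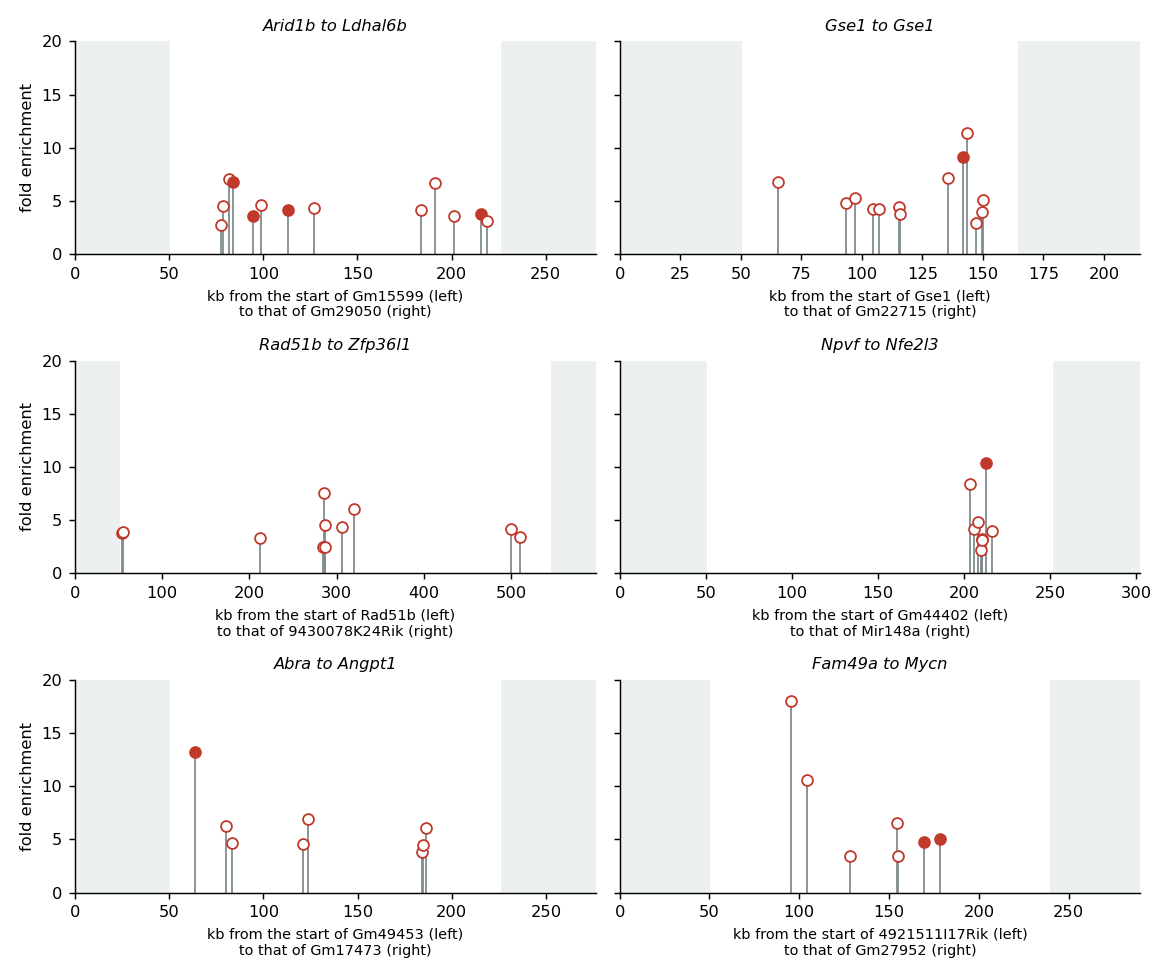
Fold enrichment of each remote peak against its position in kb between neighboring annotated starts, for the 6 stretches with the most remote peaks, titled by the flanking protein-coding genes; gray bands are the 50 kb margins, and filled circles hold a Myb motif within 50 bp of the summit. The 8 peaks between Npvf and Nfe2l3 lie within 12.8 kb, whereas the 11 between Rad51b and Zfp36l1 spread over 458 kb.

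Many genes of blood regulation had a remote peak beside them. In all, 660 protein-coding genes flanked a remote peak, out of 4219 (15.6%) that border sequence beyond 50 kb and so could. Of 95 transcription and chromatin regulators of blood cells, 56 could, and 22 did (39.3%, exact interval 26.5% to 53.2%). Of 55 blood cell receptors, adhesion and signaling genes, 26 could, and 12 did (46.2%, 26.6% to 66.6%). The sequence beside these genes held 59 peaks at 3.31 per Mb (2.52 to 4.28) and 33 peaks at 6.26 per Mb (4.31 to 8.79), against 1.16 per Mb over all remote sequence. Both lists were chosen with earlier results of these data known.

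A list of 72 neuronal adhesion and synapse genes was chosen as genes that border long stretches without other genes. All 72 could therefore flank a remote peak, and 19 did (26.4%, 16.7% to 38.1%). Their sequence was 102.5 Mb long and held 24 peaks, or 0.234 per Mb (0.150 to 0.348). The share of genes was thus above that of all genes while the density was below it. Both numbers carry the length of the stretches. Density over all remote sequence was 1.64 per Mb at 50 to 100 kb and 0.489 beyond 100 kb. The lists were not compared at equal distance from a start. The median fold enrichment was 4.86 beside the neuronal genes, 4.68 beside the blood regulators and 5.05 beside the receptors and signaling genes. The strongest beside the neuronal genes was a 10.01-fold peak 932 kb from the axon guidance receptor gene Robo2 and 224 kb from Lipi. It was followed by a pair of peaks of equal fold enrichment, 9.78. The first lay between the cadherin genes Cdh10 (851 kb) and Cdh12. The second lay 1906 kb from Csmd3 but in an intron of its other neighbor, Trps1, a zinc finger repressor gene that is not on the list, so its place beside a neuronal gene is only that of the flanking rule.

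**Figure D4:**
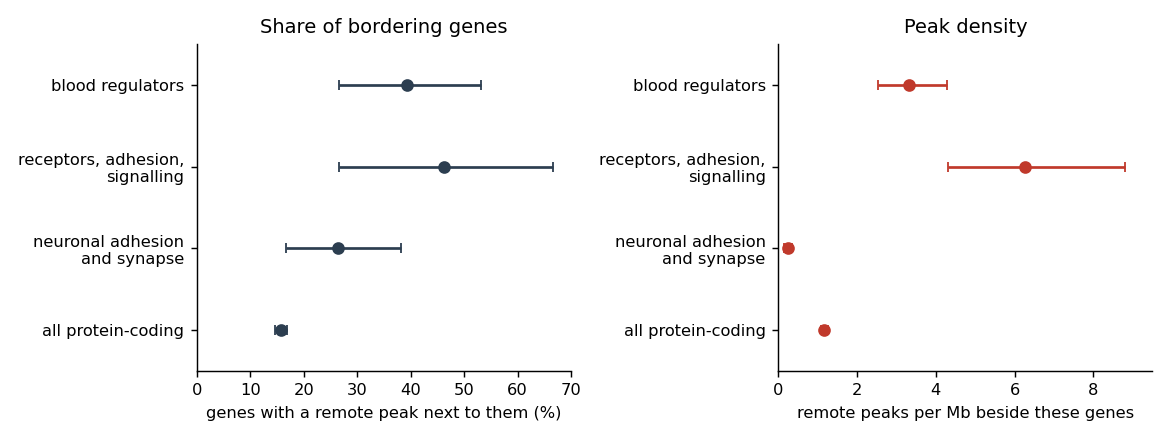
Left, the percentage of protein-coding genes bordering sequence beyond 50 kb that flank a remote peak; right, remote peaks per Mb of that sequence, for 3 gene lists and for all protein-coding genes. Bars are 95% exact binomial (left) and Poisson (right) intervals, and the density runs from 0.234 per Mb beside the neuronal genes to 6.26 per Mb beside the receptors and signaling genes.

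Among the regulators, all 3 genes of the Runx family, which encodes core-binding transcription factors of blood and bone, had remote peaks beside them. Runx1, needed for the emergence of blood stem cells, had 8 remote peaks beside it, at 60.9 to 382 kb from its starts. The strongest was a pair at chr16:93152713-93153442 (12.9-fold, 48 reads) and chr16:93147543-93148241 (12.1-fold, 47 reads), 327 and 322 kb from Runx1 on the side toward Setd4. Neither holds a Myb motif, and both hold a RUNX motif. A further peak lay inside Runx1, between its alternative starts, at 60.9 kb from the nearer (9.47-fold, 35 reads, chr16:92764577-92765344).

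Runx3, a regulator of lymphocytes, had 6 peaks at 50.1 to 139 kb. The strongest, at chr4:135205365-135206950, was at 13.3-fold with 68 reads, 52.0 kb from Runx3 and 66.3 kb from Clic4, and the next was at 11.4-fold with 45 reads on the side of Syf2. Runx2, the bone regulator of the family, had 4 peaks of 2.73- to 7.09-fold, all over 300 kb away. Of these, 3 lay in a stretch of 206 kb between starts that ends at Cdc5l, and so nearer to Cdc5l than to Runx2.

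Mycn had 8 remote peaks beside it, from 370 to 620 kb away. All 8 lay nearer to Fam49a on the other side, at 58.8 to 309 kb, and the farthest from Mycn lay in an intron of Fam49a. The strongest after the 18.03-fold peak was at 10.6-fold with 42 reads (chr12:12496284-12497995), 444 kb from Mycn and 235 kb from Fam49a. Maf, a bZIP factor of macrophages and T cells, had 7 peaks at 200 to 898 kb, the strongest of which (8.22-fold, chr8:115226875-115227544) lay inside the long gene Wwox, 480 kb from Maf. Meis1, a homeobox gene of stem cells, had 3 peaks, including a 7.59-fold peak with a Myb motif 185 kb away (chr11:19203180-19204083) and 2 peaks inside the gene. The other neighbor of the 7.59-fold peak was Spred2, at 721 kb. Sox4, an SRY-related factor, had 2 peaks of 6.40- and 5.72-fold at 337 and 184 kb, with Gm11361 on the other side at 359 and 513 kb.

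Single peaks were found beside Zbtb16 (8.37-fold, in its intron), which encodes PLZF, and beside Zeb2 (7.38-fold at 317 kb), a zinc finger repressor. Zfpm1, the gene of the GATA1 cofactor FOG1, had 2 peaks, the stronger at 7.17-fold and 170 kb away. The weakest single peaks of this list, each below 4-fold, included those beside Bach2, Klf4, Lef1 and Nfia. None of these reached a −log10 q-value of 5. In total 10 of the 22 regulators had a single remote peak and 12 had 2 or more.

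Among the receptors and signaling genes, Cd93, a surface glycoprotein of early progenitors and endothelium, had 2 peaks, at 11.9-fold (43 reads, 120 kb, chr2:148562986-148563984) and 6.79-fold (79.0 kb). Prkch, a protein kinase C gene, held a 10.7-fold peak with a Myb motif in an intron (chr12:73715793-73716434), 67.1 kb from its nearest start and 185 kb from Hif1a. Cd44, the hyaluronan receptor, had 6 peaks of 3.59- to 8.40-fold, all between it and Pdhx. Rasgrp1, a Ras activator of lymphocytes, had 5, all over 580 kb from it and nearer to Thbs1, the thrombospondin gene, at 143 kb for the strongest (7.17-fold).

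Kit, the stem cell factor receptor, had a close pair 114 and 113 kb away on the side of Pdgfra, at 5.64-fold with 28 reads (chr5:75460359-75460998) and 3.14-fold with 15 reads. Cxcr4, the chemokine receptor that holds stem cells in the marrow, had 2 peaks of 3.85- and 5.06-fold at 83.6 and 240 kb. Their other neighbor was Thsd7b, at 597 and 441 kb. Cd47, the surface signal against phagocytosis, had 1 at 6.31-fold, with a Myb motif, at 121 kb, and 344 kb from Bbx on the other side. Itgb1 and Plcg2 each had 1, at 3.33- and 2.51-fold, below the median of all remote peaks. The Plcg2 peak had a −log10 q-value of 0.793 and so did not reach a q-value of at most 0.05. It lay 50.007 kb from its nearest start, just inside the distance limit. Plcg2 is still counted among the 12 genes of this list with a remote peak.

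The stretch downstream of Myc, where distant enhancers of blood cells are known, held no remote peak by the rule used here. Over the 1818 kb from Myc to Gsdmc there were 12 Myb peaks, up to 20.1-fold, and the farthest lay 29.5 kb from a start. The same interval held 38 annotated starts and 8 stretches with 505 kb beyond 50 kb. The absence therefore holds for distance to any annotated start, not for distance to Myc. Over all remote sequence there were 1.16 remote peaks per Mb, so a length of 505 kb without any is not unusual.

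The Myb motif was more frequent at remote summits than beside them. It was found within 50 bp of 138 summits (20.3%, 17.4% to 23.6%), against 16.7% of all rows of the list. In flanking windows 500 bp to either side the share was 11.6% (9.98% to 13.5%), a ratio of 1.75, and in all windows of the same length beyond 50 kb it was 9.95%. The share at 3 to 50 kb was 19.3% (18.5% to 20.1%), within the interval of the remote peaks, and at promoters 14.7% (14.1% to 15.2%), below it. Beyond 100 kb the share was 16.9% (10.7% to 25.0%) over 118 peaks, and the flanks there had 12.7%, so a difference was not detectable at this number of peaks. In 4 classes of nearly equal size, from the weakest to the strongest fold enrichment, the share was 17.1%, 18.8%, 22.6% and 23.1%, with intervals that overlap. CAACTG was found at 9.28% of remote summits and TAACTG at 9.13%, while the CpG-holding forms CAACGG and TAACGG were found at 2.36% and 1.62%.

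Other motifs of blood factors were also more frequent at the summits. RUNX motifs (TGTGGTT or TGCGGTT) were found at 8.10% (6.16% to 10.4%) and in 2.72% (1.93% to 3.74%) of flanks, a ratio of 2.97. At 50 to 100 kb the shares were 8.56% of summits and 2.23% of flanks. Beyond 100 kb the motif was at 7 of 118 summits (5.93%, 2.42% to 11.8%) against 5.08% (2.65% to 8.71%) of flanks, a ratio of 1.17. At 3 to 50 kb RUNX motifs were found at 6.09% (5.63% to 6.57%) of summits and 2.89% of flanks, a ratio of 2.104. CEBP motifs (TTGCNNAA) were found at 10.5% (8.26% to 13.01%), and in 5.38% of flanks, a ratio of 1.95. At 3 to 50 kb both shares were lower, 7.40% (6.90% to 7.92%) and 3.85%, and the ratio was 1.92. The ETS motif AGGAAG was found at 21.1% against 13.1% of flanks, and the longer PU.1 form GAGGAAGT, which contains it, at 3.09% against 1.10%.

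GATA motifs (AGATAA or TGATAA) were found at 20.2% of remote summits, 12.4% of flanks and 14.8% of all windows beyond 50 kb. At 3 to 50 kb they were found at 18.8% of summits and 10.4% of flanks. E-boxes (CAGCTG or CAGATG) were found at 18.6% of remote summits and in 10.9% of flanks, against 17.7% and 11.9% at 3 to 50 kb. For remote peaks in introns of protein-coding genes the E-box shares were 21.5% (17.1% to 26.5%) and 8.54% (6.48% to 11.0%). In intergenic remote peaks they were 15.96% (12.2% to 20.4%) and 13.3% (10.8% to 16.1%), with intervals that overlap. By contrast AP-1 (TGANTCA) was found at 2.50% of summits and 2.50% of flanks, and IRF (GAAANNGAA) at 4.71% and 3.83%. CTCF forms (CCACNAGGG or CCAGNAGGG) were found at 5 summits, or 0.736%, the same share as in the flanks. Over all windows of this length beyond 50 kb, the shares were 2.24% for RUNX, 5.21% for CEBP, 10.4% for ETS, 0.550% for PU.1, 10.1% for E-boxes, 3.04% for AP-1, 4.44% for IRF and 0.497% for CTCF. At 216 summits (31.8%) none of the 10 families was found, which says only that these letters were not in the window.

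**Figure D5:**
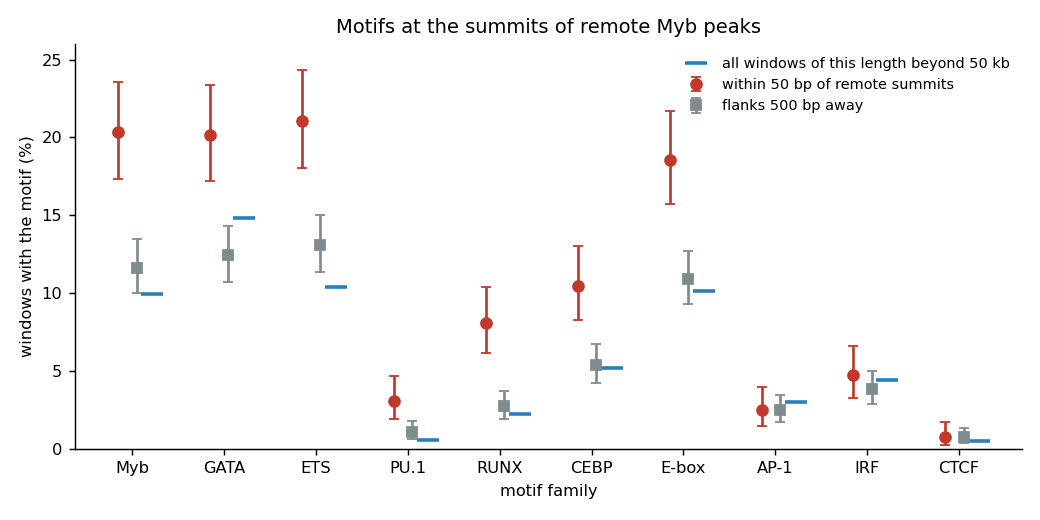
Percentage of windows (the summit base and 50 bases on either side) with each of 10 motif families at the 679 remote summits (red), in flanks 500 bp away (gray) and in all windows beyond 50 kb (blue dash), with 95% exact intervals for the first 2. The red interval lies above the gray for Myb, GATA, ETS, PU.1, RUNX, CEBP and E-box motifs, and overlaps it for AP-1, IRF and CTCF.

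In base composition, remote summits stood between their surroundings and promoters. Their windows had a mean GC content of 45.2%, against 39.4% for all windows beyond 50 kb, 45.9% for peaks at 3 to 50 kb and 52.3% for promoter peaks. Repeats, read from the soft masking of the genome, covered at least 50% of the window at 34 remote summits (5.01%, 3.49% to 6.93%), against 8.05% (7.53% to 8.597%) at 3 to 50 kb. Of all bases beyond 50 kb, 38.5% were soft-masked. The part of GC content and repeats in the motif shares was not tested.

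The density of remote peaks was uneven over the chromosomes. The 19 autosomes held 0.699 to 2.76 remote peaks per Mb of sequence beyond 50 kb, with a median of 1.25. The highest values were on chromosomes 17 (48 peaks) and 19 (29 peaks), at 2.76 and 2.72 per Mb. Chromosome X held 9 remote peaks in 42.7 Mb, or 0.211 per Mb, below every autosome. Of all peaks on chromosomes 17, 19 and X, remote ones were 48 of 1262, 29 of 1063 and 9 of 376. In the whole list they were 679 of 25793 (2.63%). On chromosomes 19 and X the share of remote peaks was thus near that of the list. The study used mice of both sexes, and the sex of those behind the Myb library is not stated.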

How the data were processed

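Myb and IgG ChIP-Seq libraries from WT Lin– bone marrow cells (1 library each) were analyzed as the deposited Myb peak list (mm10). Per the labels, the submitters' processing notes name cutadapt 1.15, BWA 0.7.13, Picard and MACS2 2.1.1.20160309. The deposited columns were the fold enrichment (a ratio) over IgG and the −log10 p-value and −log10 q-value, as the authors' MACS2 run gave them, and a display score, which was not used. The IgG values enter only as the background. Read depth is not in the list, so reads at each summit were recovered from fold enrichment and p-value with a single pileup scale of 0.769, which gave a whole number in 100% of rows within 0.002 of the −log10 p-value. More than 1 read number came within this tolerance in 1.24% of rows, and the closest was used.

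Summits were compared with 141730 transcript starts of 55413 GENCODE vM21 genes. Bases, motifs and soft masking were read from GRCm38 (RefSeq). Intervals are 95%, exact for shares. No p-value was computed, because peaks are not replicates. Python 3.11.15, NumPy 2.4.6, pandas 2.3.3, SciPy 1.17.1 and pysam 0.24.0 were used, and distances, motif search and read recovery were tested on simulated data. Members, gene lists and the rule for named peaks were chosen with earlier results of these data known. The rule named the 10 remote peaks of highest fold enrichment (the strongest is not reported here), the 5 farthest, up to 25 beside listed blood genes, the 5 stretches with the most peaks, the stretch downstream of Myc, 3 peaks on each side of the distance limit, and the introns with the most peaks. Alternatives covered the set of starts, the distance, the q-value, and the motif window, form and flanks.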

Additional observations from a re-analysis of the deposited data

How the results depend on the processing

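No paired analysis was possible because there was 1 library of each kind. Of 54 values recomputed for 9 results, 27 stayed within the interval, or within 1.5 times for counts, 26 moved and 1 turned. The value that turned was the median of remote peaks minus that at 3 to 50 kb, 0.212 in fold enrichment and −1 in recovered reads. With protein-coding starts only, there were 2364 remote peaks (9.17% of the list), 25.5% in introns, with a relative density of 0.185, a median difference of 0.312 and 1683 flanking genes. With 1 start per gene, there were 1452 (5.63%), 67.6% in introns, with a relative density of 0.212 and 1051 flanking genes. Beyond 100 kb, there were 118 (0.457%), 50.8% in introns, with a relative density of 0.0502, 140 flanking genes, a motif share of 16.9% and a ratio to the flanks of 1.33. Requiring 5 or more for the −log10 q-value left 285 remote peaks and 360 flanking genes, with a median fold enrichment of 6.79 and a median difference of 0.452. The Myb motif share was 11.3% within 25 bp (ratio 2.08) and 37.6% within 100 bp, and 37.4% for CAACNG or TAACNG. The alternatives change the members, the measure of strength or the motif search, and the reasons for the shifts were not tested. Leaving out the readthrough gene Gm20388, added after seeing the data, gave 46.2% in introns. With no replicate, no alternative measures variation between mice.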
